A study of Homo sapiens with 6 samples.

Results

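The SLC25 family holds the carrier proteins that move metabolites across the inner membrane of mitochondria. Its members were taken as every row of the deposited gene table whose symbol is SLC25A followed by a number, which gave 48 of 17891 genes. RNA sequencing had been done on 6 libraries of T47D, an established human cell line from a luminal breast tumour that expresses the estrogen receptor. In 3 PRL libraries the cells carried PRL, the gene of the hormone prolactin, delivered by a PLVX-puro lentivirus, and in 3 control libraries they carried the control lentivirus. All cells had grown for 2 days in RPMI1640 with FBS. Whether each line was a pool or a single clone is not given in the sources used here, and the 3 libraries of a group are called biological replicates in the series.

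SLC25 carriers are encoded in the nucleus, made in the cytosol and inserted into the inner membrane by the TIM22 complex with the help of small TIM chaperones. Most are built from tandem repeats that share a short signature motif, and most exchange one substrate for another. They supply the matrix with ADP, phosphate, amino acids, nucleotides, coenzymes and iron, and they export ATP and citrate, the carbon source of fatty acid synthesis in the cytosol. A few members lie elsewhere, among them SLC25A17 in peroxisomes and SLC25A46 in the outer mitochondrial membrane.

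Totals were 16211146 to 17402348 rounded counts per library. About 3 counts are the most that a count of 0 allows. By library totals, without the scaling used for later CPM values, 3 counts correspond to 0.172 to 0.185 CPM. PRL itself had 7789 to 8277 counts in PRL libraries and 1 to 3 counts in control libraries, in the direction of the labels. All 7 luminal markers examined were detected, from 24.2 TPM for ESR1 to 7101 TPM for KRT8 over the 6 libraries. With edgeR 3 were called higher and 4 lower in PRL, beside 33.3% of all tested genes higher and 30.5% lower. Of those called lower, ESR1 and KRT19 had overlapping groups in TPM, while KRT8 and KRT18 had separate groups. Of 4 basal or mesenchymal markers, the keratin genes KRT5 and KRT14 averaged 0.0317 and 0.0933 TPM and VIM, the most abundant, 1.95 TPM. The fourth, TP63, averaged 1.35 TPM in PRL and 0.43 TPM in control libraries and was called higher (log2 fold change 1.26, adjusted p with edgeR = 0.0018). Its mean over the 6 libraries, 0.892 TPM, passed the 0.5 TPM limit for testing only through the PRL libraries. Of 4 markers of other cells, COL1A1 averaged 24.1 TPM in PRL and 12.95 TPM in control libraries while its partner COL1A2 was at 0.0567 TPM, and the part of other cells in the results was not tested. Control libraries varied more than PRL libraries. The mean chi-squared of counts per tested gene was 13.6 to 26.2 between control libraries and 1.71 to 2.25 between PRL libraries. Of the 43 tested members, 35 had the larger SD of CPM in control, and the share over all genes is not given here. Ribosomal protein genes took 10.0% to 10.6% of counts in PRL libraries and 15.5% to 18.6% in control libraries, and the TMM (trimmed mean of M values) scaling factors were 1.08 to 1.10 in PRL and 0.858 to 0.955 in control.

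Transcripts of the family ranged widely in level. Levels between genes are given in TPM, which is scaled by transcript length. SLC25A6, an ADP/ATP carrier, was the most abundant at 549 ± 4.69 TPM in PRL and 708 ± 25.3 TPM in control libraries (SD, n = 3 each). SLC25A39, a glutathione carrier, followed at 519 ± 1.45 TPM in PRL and 490 ± 27.4 TPM in control. The phosphate carrier gene SLC25A3, the ADP/ATP carrier gene SLC25A5, the citrate carrier gene SLC25A1 and the dicarboxylate carrier gene SLC25A10 came next, with means over all libraries of 352, 315, 281 and 126 TPM. Together these 6 genes held 71.7%, 71.6% and 72.0% of the family's TPM in PRL libraries, against 79.4%, 77.3% and 78.4% in control libraries. All PRL libraries lay below all control libraries in that share. The summed TPM of the 48 members was 2871 ± 13.5 in PRL and 3007 ± 134 in control, and these ranges overlapped.

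Of the 48 members, 6 averaged under 1 TPM. A mean of at least 0.5 TPM over the 6 libraries was required for testing, without regard to group, and 43 members met it. SLC25A48, at 0.943 TPM, and SLC25A18, at 1.57 TPM, lay just inside, while SLC25A53, at 0.373 TPM, and SLC25A2, at 0.153 TPM, lay just outside. SLC25A31, the ADP/ATP carrier of the testis, had 0, 0 and 0 counts in PRL libraries and 0, 1 and 0 in control libraries. SLC25A47 had 2 counts in PRL replicate 3 alone, and SLC25A52 had 1 count in control replicate 3 alone.

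**Figure D1:**
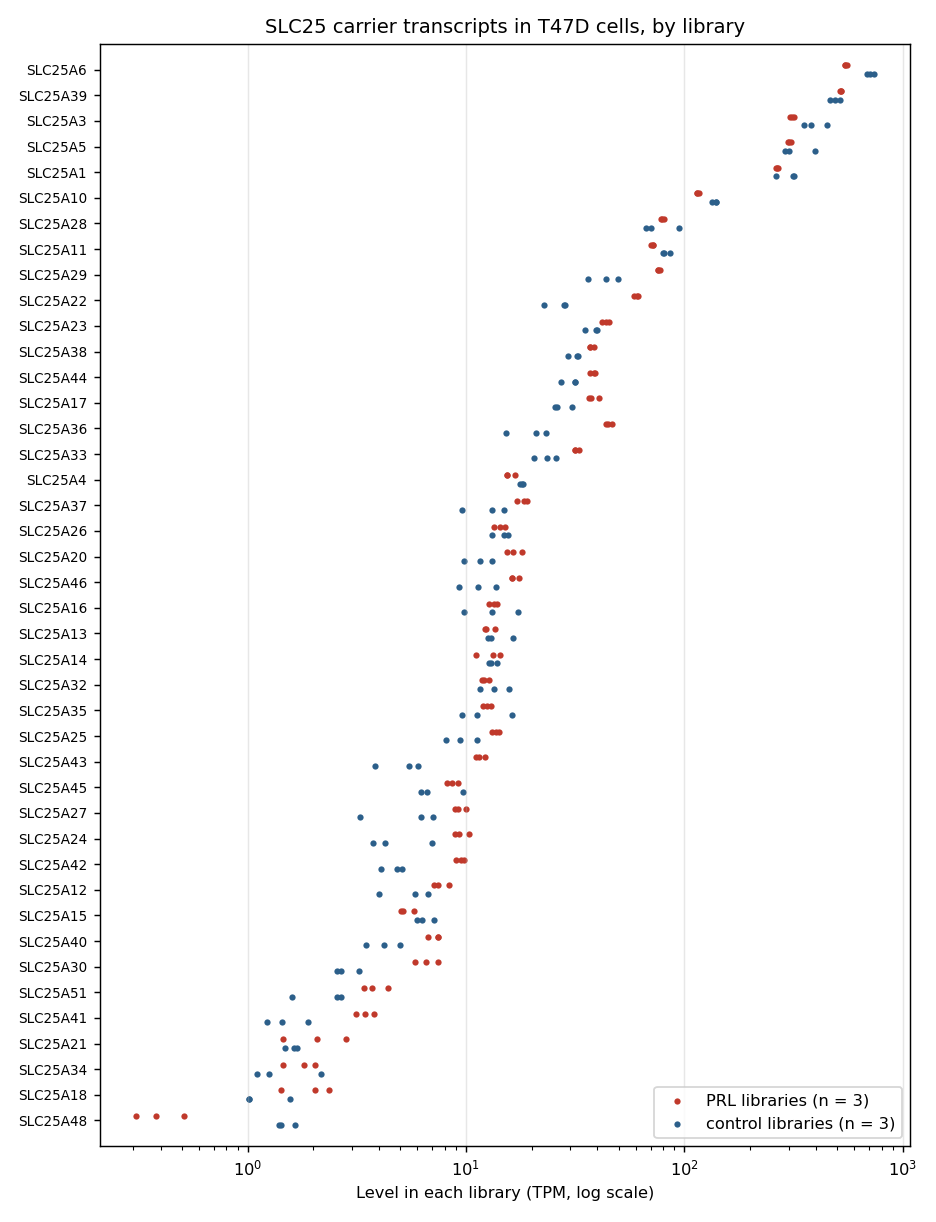
Level of 42 of the 43 tested SLC25 members in every library (TPM, log scale), with PRL libraries drawn above control libraries for each gene. Mean levels run from 0.943 TPM for SLC25A48 to 628 TPM for SLC25A6.

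The comparison of PRL with control asked which carriers differ in cells that overexpress prolactin. On the TMM scale 27 of 43 tested members changed at an adjusted p under 0.05 (edgeR quasi-likelihood test, adjusted over 13462 genes), 9 higher and 18 lower. This is 62.8% of the members, where 63.8% of all tested genes changed. Members higher were 20.9%, against 33.3% of all genes, and members lower were 41.9%, against 30.5% of all genes. Of the members, 28 (65.1%) had PRL and control libraries that did not overlap, where 70.2% of all tested genes had such groups. The median log2 fold change was -0.18 over the members and 0.03 over all genes. By size, 1 of the 43 members (2.33%), SLC25A48, differed by at least 2-fold, beside 14.9% of all tested genes. SLC25A48 met the 0.5 TPM filter only through the control libraries, as its PRL mean was 0.40 TPM. Of the 27 called members, 13 (48.1%) changed by less than 1.5-fold, beside 46.1% of all called genes. In bulk RNA, fewer cells with a transcript and less of it per cell cannot be told apart.

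The split between rises and falls depended on scaling. With library totals the members split into 15 higher and 12 lower, with log2 TPM into 21 higher and 6 lower, and with log2 TPM centred on each library's median into 6 higher and 21 lower. The median of all genes moved with it, and was 0.03 on the TMM scale, 0.26 with library totals and 0.38 on log2 TPM. The 12 members called higher on log2 TPM but not on the TMM scale were SLC25A12, SLC25A17, SLC25A18, SLC25A20, SLC25A25, SLC25A27, SLC25A33, SLC25A37, SLC25A38, SLC25A44, SLC25A46 and SLC25A51. The share of all called genes that were higher was 52.1% on the TMM scale, 72.5% with library totals, 84.2% on log2 TPM, 71.4% on log2 FPKM and 37.9% on median-centred log2 TPM. The median of the members lay below that of all genes by 0.20 on the TMM scale, 0.21 with library totals and 0.14 on log2 TPM. Rises of 6 members (SLC25A22, SLC25A29, SLC25A30, SLC25A36, SLC25A42 and SLC25A43) and falls of 6 members (among them SLC25A3, SLC25A6, SLC25A10, SLC25A11 and SLC25A48) passed the test in each alternative of the 21 in which they were fitted. Fold changes below are PRL over control on the TMM scale.

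**Figure D2:**
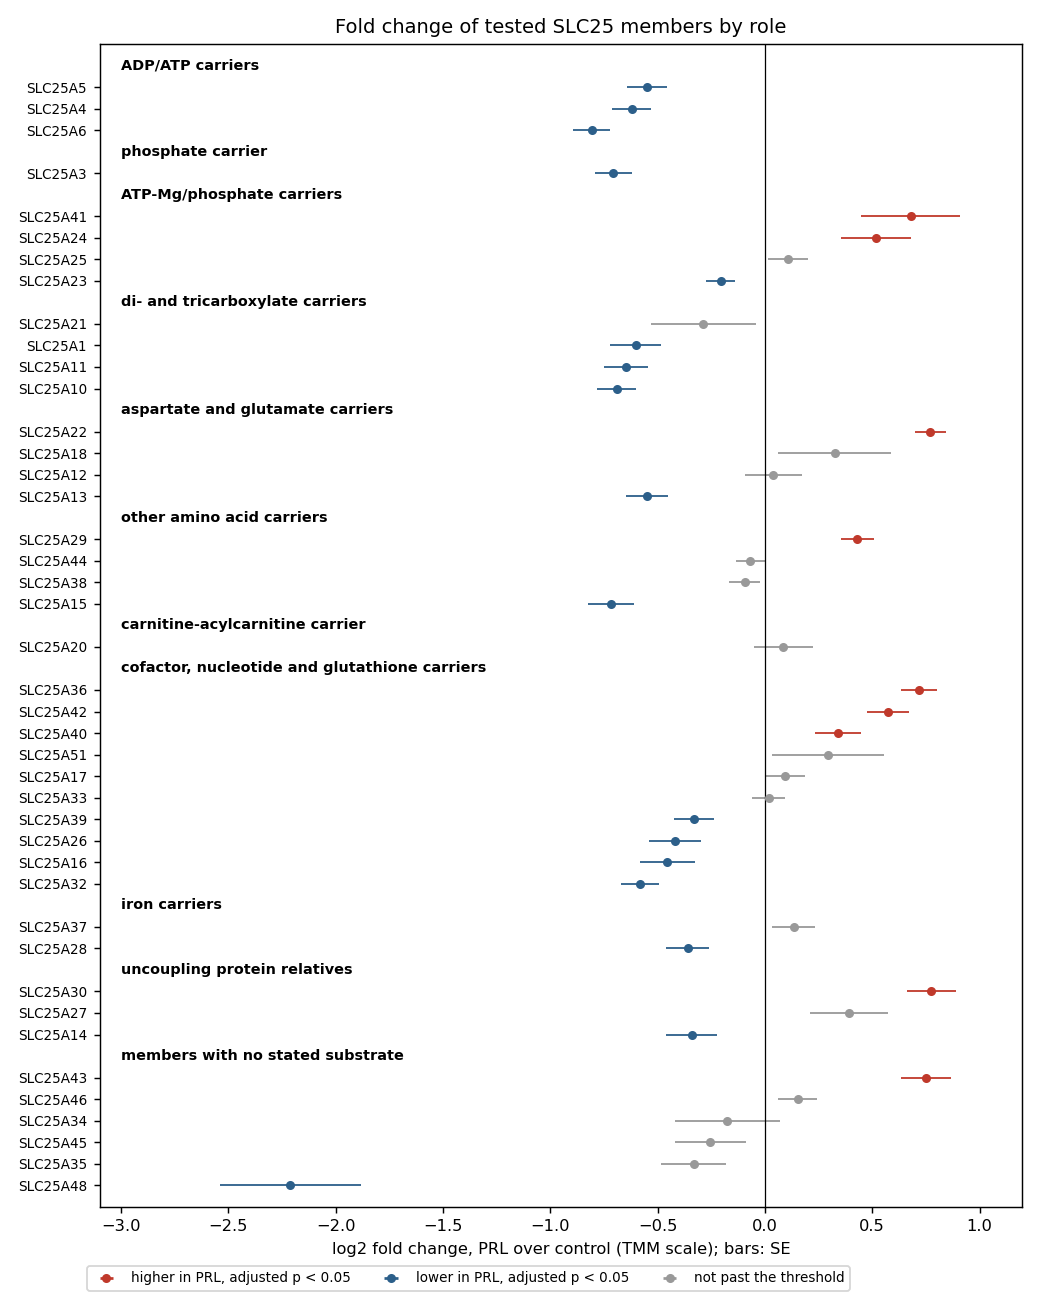
Log2 fold change of 42 of the 43 tested members, PRL over control, with its standard error, grouped by what they carry. All 4 tested ADP/ATP and phosphate carriers lie left of 0, and the other groups hold members on both sides or members that did not pass the test.

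All 4 tested carriers of ADP/ATP and phosphate, which bring in the substrates of ATP synthase and export its product, fell in PRL cells. Of all tested genes 30.5% were lower. Among genes of at least 100 TPM, where SLC25A3, SLC25A5 and SLC25A6 lie, 69.1% were lower. SLC25A6 (NCBI gene 293, GRCh38 chromosome X, 1386152 to 1392724, in the pseudoautosomal region) had 417, 428 and 442 CPM in PRL libraries, against 818, 708 and 724 CPM in control libraries. Its log2 fold change was -0.81 (SE 0.09, adjusted p with edgeR = 2.5e-05). SLC25A3 (chromosome 12, 98593591 to 98606379) had 316, 315 and 333 CPM in PRL, against 526, 478 and 567 CPM in control, a log2 fold change of -0.71 (SE 0.08, adjusted p with edgeR = 5.6e-05). In both genes every PRL library lay well below every control library.

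SLC25A5, the form typical of dividing cells, had 211, 212 and 213 CPM in PRL, against 309, 272 and 349.6 CPM in control (log2 fold change -0.55, SE 0.09, adjusted p with edgeR = 5.3e-04). SLC25A4, the form typical of heart and muscle, had 40.1, 37.7 and 38.1 CPM in PRL, against 66.9, 56.9 and 54.5 CPM in control (log2 fold change -0.62, adjusted p with edgeR = 1.9e-04). Groups did not overlap in either gene on this scale, but both calls ended on log2 TPM, at -0.10 and -0.17. GENCODE 29 names 9 pseudogenes after SLC25A5 and 6 after SLC25A6, so reads shared with them make single levels of these 2 genes uncertain, and an antisense gene overlaps 15.1% of the exon bases of SLC25A5. SLC25A6 gave 62.7%, 63.3% and 63.9% of the summed TPM of SLC25A4, SLC25A5 and SLC25A6 in PRL libraries, against 69.1%, 68.8% and 64.0% in control libraries. Control replicate 3 lay beside the PRL libraries, and the other controls stood apart from them.

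Of 4 tested carriers of citric acid cycle intermediates and related acids, 3 fell, beside 30.5% of all tested genes. At 100 TPM or more, where SLC25A1 and SLC25A10 lie, 69.1% of genes fell. SLC25A1, which exports citrate to the cytosol, had 218, 220.3 and 226 CPM in PRL, against 399, 333 and 276 CPM in control (log2 fold change -0.60, SE 0.12, adjusted p with edgeR = 0.0012). SLC25A10, which exchanges malate and succinate for phosphate, had 123, 124 and 125 CPM in PRL, against 227, 193 and 181 CPM in control (log2 fold change -0.69, SE 0.09, adjusted p with edgeR = 9.2e-05). SLC25A11, the oxoglutarate-malate carrier of the malate-aspartate shuttle, had 64.3, 64.9 and 67.3 CPM in PRL, against 121, 95.4 and 92.0 CPM in control (log2 fold change -0.65, adjusted p with edgeR = 3.3e-04). Groups were separate in all 3 genes, with control replicate 1 the highest. The call of SLC25A1 ended on log2 TPM (-0.16), and a same-strand gene model covers 46.6% of the exon bases of SLC25A10. SLC25A21, the oxodicarboxylate carrier, did not pass, with a log2 fold change of -0.29 (adjusted p with edgeR = 0.324). Its call appeared without PRL replicate 3, at -0.60.

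Aspartate and glutamate carriers went in both directions. SLC25A22, which brings glutamate into the matrix with a proton, had 83.9, 88.8 and 91.0 CPM in PRL libraries, against 50.4, 52.8 and 51.4 CPM in control libraries (log2 fold change 0.77, SE 0.07, adjusted p with edgeR = 1.0e-05). No library of one group came near the other. PANO1, on the opposite strand, overlaps 10.8% of its exon bases. SLC25A18, the second glutamate carrier, was near 2 CPM and did not pass (log2 fold change 0.32, adjusted p with edgeR = 0.304). SLC25A13, known as citrin, had 22.1, 20.6 and 20.4 CPM in PRL, against 31.4, 27.2 and 33.8 CPM in control (log2 fold change -0.55, adjusted p with edgeR = 7.1e-04), a call that ended on log2 TPM (-0.12). SLC25A12, known as aralar and the other aspartate-glutamate exchanger, had overlapping groups and a log2 fold change of 0.04 (adjusted p with edgeR = 0.811).

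Among other amino acid carriers, SLC25A29, a carrier of basic amino acids, rose and the ornithine carrier gene SLC25A15 fell. SLC25A29 had 95.7, 97.9 and 101 CPM in PRL, against 68.8, 79.6 and 70.0 CPM in control (log2 fold change 0.43, SE 0.08, adjusted p with edgeR = 7.9e-04). SLC25A15 had 10.3, 12.2 and 11.01 CPM in PRL, against 19.2, 17.04 and 18.9 CPM in control (log2 fold change -0.72, SE 0.11, adjusted p with edgeR = 2.1e-04). The fall of SLC25A15 did not pass on log2 TPM (-0.24), and 5 pseudogenes named after it leave its level open to shared reads. SLC25A38, a glycine carrier needed for heme synthesis, and SLC25A44, a carrier of branched-chain amino acids, had log2 fold changes of -0.09 and -0.07 and did not pass (adjusted p with edgeR = 0.278 and 0.404). On log2 TPM both were called higher, at 0.25 and 0.34, and on median-centred log2 TPM both were called lower, at -0.25 and -0.17. SLC25A44 was also called lower with GC and length trends removed (-0.17). Their direction thus rests on the scale. The carnitine-acylcarnitine carrier gene SLC25A20, through which fatty acids reach beta-oxidation, had 14.5, 17.4 and 16.2 CPM in PRL and 17.2, 12.2 and 15.96 CPM in control. Its groups overlapped (log2 fold change 0.09, adjusted p with edgeR = 0.596).

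Carriers of cofactors and nucleotides split into rises and falls, with 3 of 11 tested members higher and 5 lower. Of all tested genes, 33.3% were higher and 30.5% lower. SLC25A36, a pyrimidine nucleotide carrier (chromosome 3, 140941830 to 140980961), had 122, 119.6 and 119.9 CPM in PRL libraries, against 65.5, 74.5 and 80.1 CPM in control libraries (log2 fold change 0.72, SE 0.08, adjusted p with edgeR = 4.7e-05). Its relative SLC25A33, which also carries pyrimidine nucleotides, had 26.3, 26.6 and 27.2 CPM in PRL and 26.2, 26.3 and 26.6 CPM in control, with overlapping groups and a log2 fold change of 0.02 (adjusted p with edgeR = 0.850). SLC25A42, a coenzyme A carrier, had 15.2, 16.8 and 16.6 CPM in PRL, against 10.998, 11.2 and 10.5 CPM in control (log2 fold change 0.57, adjusted p with edgeR = 5.6e-04). SLC25A36 and SLC25A42 thus had separate groups, and SLC25A33 did not.

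SLC25A32, which carries folate and FAD, had 18.7, 20.2 and 19.2 CPM in PRL, against 28.1, 27.4 and 31.5 CPM in control (log2 fold change -0.58, adjusted p with edgeR = 2.8e-04). It was lower in every PRL library, though its call ended on log2 TPM (-0.13) and a same-strand gene model covers 69.7% of its exon bases. SLC25A16 and the S-adenosylmethionine carrier gene SLC25A26 fell by less, with log2 fold changes of -0.45 and -0.42 (adjusted p with edgeR = 0.0099 and 0.0114). Both calls ended with library totals (-0.22 and -0.17), the sign of SLC25A16 turned on log2 TPM (0.025), and the call of SLC25A26 also without PRL replicate 2 (-0.35) and with trends on GC content and length removed (-0.24).

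The glutathione carrier pair diverged on the TMM scale. SLC25A39 had 435, 444 and 454 CPM in PRL, against 622, 556 and 497 CPM in control (log2 fold change -0.33, SE 0.09, adjusted p with edgeR = 0.0103), but this fall ended without PRL replicate 1 (-0.31) and with library totals (-0.085), and its sign turned on log2 TPM (0.084). SLC25A40 had 16.3, 16.7 and 15.3 CPM in PRL, against 11.9, 12.1 and 14.1 CPM in control (log2 fold change 0.34, SE 0.11, adjusted p with edgeR = 0.0163). That rise did not pass without PRL replicate 1 (0.33) or PRL replicate 2 (0.31), or with trends on GC content and length removed (0.16). Of the remaining cofactor carriers, SLC25A17 (log2 fold change 0.09) and the NAD carrier gene SLC25A51 (0.29) did not pass, with adjusted p with edgeR of 0.376 and 0.345.

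The mitoferrins bring iron into the matrix for heme and iron-sulfur clusters. SLC25A28, mitoferrin-2, had 55.0, 54.9 and 57.4 CPM in PRL, against 69.9, 82.4 and 62.2 CPM in control (log2 fold change -0.36, SE 0.10, adjusted p with edgeR = 0.0096), a call that ended with library totals (-0.12) and with GC and length trends removed (-0.12), and its sign turned on log2 TPM (0.051). SLC25A37, mitoferrin-1 and best known from red cell precursors, had 40.2, 41.1 and 38.5 CPM in PRL and 33.0, 42.2 and 34.03 CPM in control. Its groups overlapped, with a log2 fold change of 0.13 (adjusted p with edgeR = 0.263), and without control replicate 2 it passed at 0.24.

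ATP-Mg/phosphate carriers adjust the adenine nucleotide pool of the matrix, and SLC25A23, SLC25A24 and SLC25A25 respond to calcium. SLC25A24 had 21.3, 24.2 and 21.3 CPM in PRL, against 13.4, 12.7 and 20.5 CPM in control (log2 fold change 0.52, SE 0.16, adjusted p with edgeR = 0.0182). Control replicate 3 lay just under the PRL libraries, and the rise did not pass without PRL replicate 2 (0.45), control replicate 1 (0.42) or control replicate 2 (0.38). SLC25A23 had 75.9, 78.2 and 74.9 CPM in PRL, against 90.5, 88.1 and 85.4 CPM in control (log2 fold change -0.21, adjusted p with edgeR = 0.0218). Its fall ended without PRL replicate 1 (-0.20), PRL replicate 2 (-0.22) or PRL replicate 3 (-0.19), and with the replicate number as a block (-0.21). It was 0.034 with library totals and 0.19 on log2 TPM. SLC25A25 did not pass (log2 fold change 0.11, adjusted p with edgeR = 0.342). SLC25A41, at 156 counts over PRL and 85 over control libraries, had a log2 fold change of 0.68 (SE 0.23, adjusted p with edgeR = 0.0242). Without PRL replicate 1 (0.71), PRL replicate 3 (0.58) or control replicate 3 (0.50) it did not pass, nor in DESeq2 (0.65).

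Relatives of the uncoupling proteins and members with no substrate stated here held the largest fall of the family on the TMM scale and a rise as large as that of SLC25A22. SLC25A30, a relative of the uncoupling proteins described in kidney, had 13.9, 12.7 and 11.99 CPM in PRL libraries, against 7.71, 6.83 and 7.95 CPM in control libraries (log2 fold change 0.78, SE 0.12, adjusted p with edgeR = 2.3e-04). SLC25A43 had 16.4, 15.7 and 15.3 CPM in PRL, against 8.05, 9.63 and 10.4 CPM in control (log2 fold change 0.75, SE 0.12, adjusted p with edgeR = 2.9e-04). SLC25A48 fell to 5, 5 and 5 counts in PRL libraries, against 19, 23 and 20 counts in control libraries, a ratio of 0.211 with a 95% counting interval of 0.112 to 0.376 (adjusted p with edgeR = 2.1e-04). Groups were separate in all 3 genes, and SLC25A48 stayed under 2 TPM throughout. It averaged 0.40 TPM in PRL and 1.49 TPM in control libraries, so only the control group lifted it over the filter of 0.5 TPM.

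SLC25A14 had 8.66, 7.47 and 9.24 CPM in PRL, against 10.998, 10.7 and 10.5 CPM in control (log2 fold change -0.34, adjusted p with edgeR = 0.0261). Its call ended without PRL replicate 1 (-0.36), PRL replicate 2 (-0.26) or control replicate 1 (-0.32), and it was -0.10 with library totals and -0.057 with GC and length trends removed. SLC25A27, another relative, had a log2 fold change of 0.39 (adjusted p with edgeR = 0.0830) and passed at 0.57 without control replicate 2 and at 0.42 with the replicate number as a block. SLC25A46, a protein of the outer membrane that acts in mitochondrial shape, had 42.5, 41.9 and 41.8 CPM in PRL and 34.9, 35.7 and 42.8 CPM in control. Control replicate 3 lay above the PRL libraries (log2 fold change 0.15, adjusted p with edgeR = 0.165), and without it the gene passed at 0.25. SLC25A34, SLC25A35 and SLC25A45 had log2 fold changes of -0.18, -0.33 and -0.25 and did not pass (adjusted p with edgeR = 0.550, 0.0762 and 0.202). Without control replicate 3, SLC25A35 (-0.44) and SLC25A45 (-0.41) passed, and SLC25A35 also in DESeq2 (-0.36). RANGRF, on the opposite strand, overlaps 33.2% of the exon bases of SLC25A35, and strand use in counting is not given in the sources used here.

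Ratios between related carriers within a library do not depend on scaling, and 9 pairs were compared. SLC25A36 over SLC25A33 had log2 ratios of TPM of 0.56, 0.45 and 0.47 in PRL libraries, against -0.42, -0.16 and -0.15 in control libraries, so the more abundant of the pair differed between the groups. The aspartate-glutamate carriers SLC25A12 over SLC25A13 had -0.71, -0.78 and -0.71 in PRL, against -1.66, -1.16 and -1.28 in control, with SLC25A13 the higher of the pair throughout. SLC25A24 over SLC25A23 averaged -2.20 ± 0.06 in PRL and -2.98 ± 0.42 in control (SD, n = 3 each), a difference of 0.78 on the log2 scale. SLC25A40 over SLC25A39 differed by 0.70 and SLC25A37 over SLC25A28 by 0.51.

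Groups did not overlap in 8 of the 9 ratios, with PRL libraries above control libraries in the order written. Each of these 8 had a two-sided exact permutation p of 0.1, the smallest that 3 against 3 libraries allow. After Benjamini-Hochberg adjustment over the 9 pairs it was 0.113. The direction depends on which gene is written first, and SLC25A6 and SLC25A23 recur as the second gene. Pairs were described after their values were seen, so the count of 8 is a description only. No background of other pairs was computed, and among single genes 70.2% of all tested had separate groups in CPM. SLC25A22 over SLC25A18 overlapped (exact permutation p = 0.2, adjusted p = 0.2). The separation of SLC25A5 over SLC25A6 was thin, with PRL replicate 3 at -0.8936 and control replicate 3 at -0.8943. The design cannot bring any of these tests under 0.05.

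**Figure D3:**
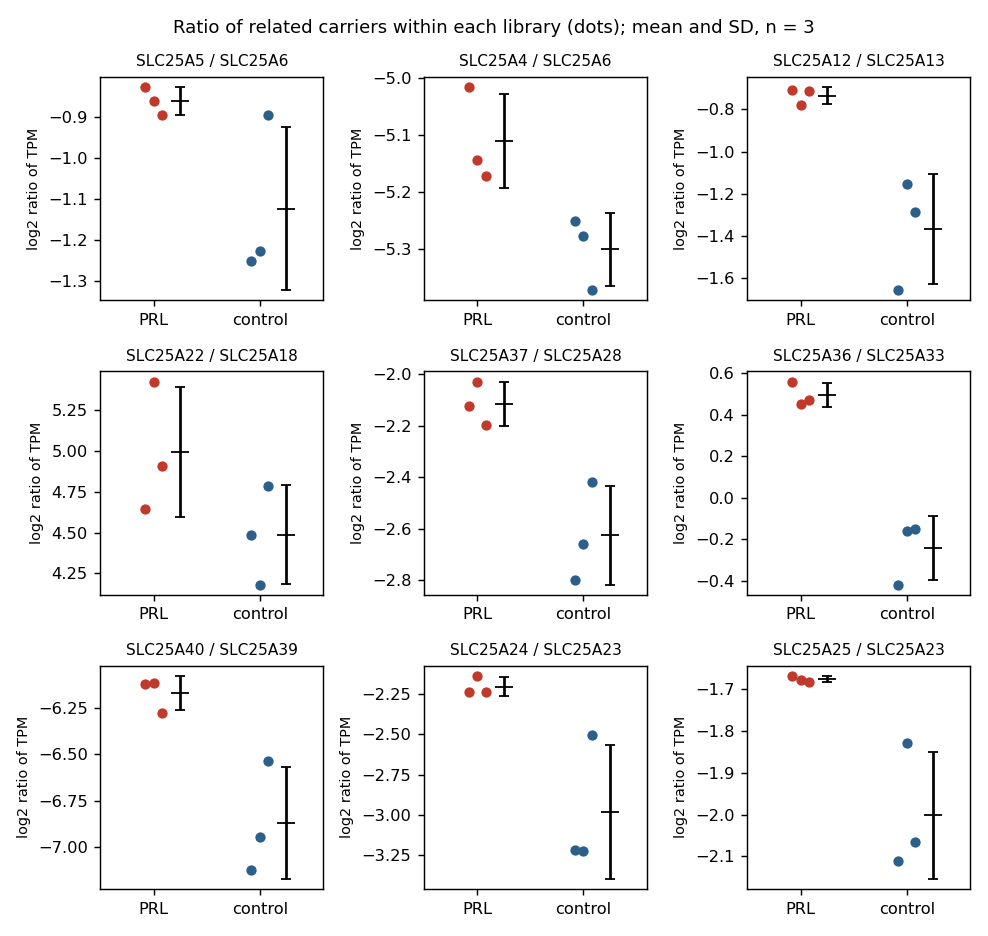
Log2 ratio of TPM between related carriers in each library (dots), with mean and SD over 3 libraries, PRL left of control. In 8 of 9 pairs, in the order drawn, each PRL library lies above each control library, and SLC25A22 over SLC25A18 overlaps.

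Level and direction went together in the family and in the table as a whole. All 6 members of at least 100 TPM fell on the TMM scale, where 69.1% of the 1506 genes at that level fell and 13.5% rose. Of the 7 tested members under 5 TPM, 2 rose and 1 fell, where 37.7% of such genes rose and 15.7% fell. The log2 fold change correlated with level at a Spearman rho of -0.365 across 43 members and -0.295 across 13462 genes, and with transcript length at 0.368 across the members and 0.224 across 13371 genes. Genes are not independent replicates, and share the same 6 libraries. After removal of trends on GC content and length per library, the members split into 9 higher and 17 lower, with a median of -0.12.

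**Figure D4:**
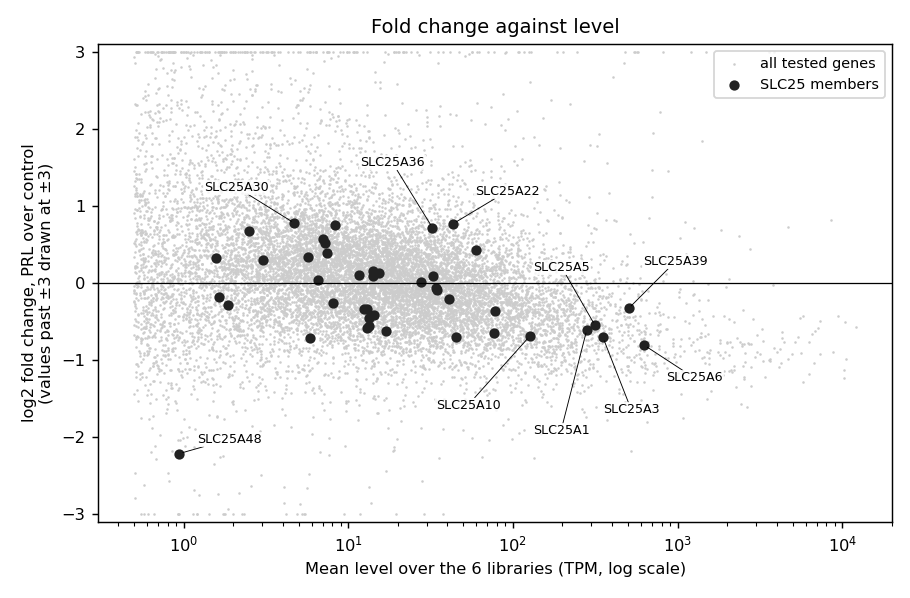
Log2 fold change, PRL over control, against mean level over the 6 libraries (TPM, log scale), for SLC25 members (black) and all tested genes (grey). The 6 members above 100 TPM lie below 0, in the part of the plot where most genes do.

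Promoters were read for 40 members with an entry in the RefSeq table (GRCh38.p14), as 50 windows of 250 bases before to 50 bases after a start. They were searched on both strands for the core TTCNNNGAA bound by STAT factors, for GAAA and GAAA with any 2 bases between them (interferon response elements), for GCGC and TGCGC with any base between them (NRF1), for CCGGAAG (ETS factors) and for the CCAAT box. TTCNNNGAA was in 10.0% of the members' windows and 6.54% of 20245 windows of all genes of the table. The interferon element core was in 2.00% and 3.08%, the NRF1 core in 10.0% and 7.92%, CCGGAAG in 22% and 13.7%, and CCAAT in 44% and 34.5%. Members with TTCNNNGAA were SLC25A11 (called lower), SLC25A23 (called lower), SLC25A36 (called higher), and SLC25A18 and SLC25A44 (not called). Promoters of 2 clear rises and 2 clear falls are shown because they hold cores of STAT, interferon element, NRF1 or ETS type, which are in capitals, and no binding was measured here. In SLC25A36 the STAT core begins 167 bases before the start, and in SLC25A11 131 bases before it. SLC25A22 has 4 windows, of which the one shown holds the interferon element core 100 bases before its start and CCGGAAG 125 bases before it, and SLC25A3 holds the NRF1 core 214 bases before its start and SLC25A11 holds it 17 bases before.
SLC25A36, chr3:140941586-140941885, plus strand: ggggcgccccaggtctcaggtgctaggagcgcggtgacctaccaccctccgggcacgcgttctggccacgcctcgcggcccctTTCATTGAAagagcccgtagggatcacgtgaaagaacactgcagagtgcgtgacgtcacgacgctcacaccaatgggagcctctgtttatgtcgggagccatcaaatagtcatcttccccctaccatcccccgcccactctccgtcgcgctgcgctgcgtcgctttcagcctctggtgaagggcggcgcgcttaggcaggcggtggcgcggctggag
SLC25A22, chr11:796189-796488, minus strand: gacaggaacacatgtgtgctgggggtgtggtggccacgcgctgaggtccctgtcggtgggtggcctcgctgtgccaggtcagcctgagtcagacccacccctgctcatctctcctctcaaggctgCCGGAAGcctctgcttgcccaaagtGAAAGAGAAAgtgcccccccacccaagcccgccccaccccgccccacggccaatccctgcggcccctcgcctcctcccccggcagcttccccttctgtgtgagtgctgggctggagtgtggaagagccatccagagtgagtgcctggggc
SLC25A11, chr17:4939997-4940296, minus strand: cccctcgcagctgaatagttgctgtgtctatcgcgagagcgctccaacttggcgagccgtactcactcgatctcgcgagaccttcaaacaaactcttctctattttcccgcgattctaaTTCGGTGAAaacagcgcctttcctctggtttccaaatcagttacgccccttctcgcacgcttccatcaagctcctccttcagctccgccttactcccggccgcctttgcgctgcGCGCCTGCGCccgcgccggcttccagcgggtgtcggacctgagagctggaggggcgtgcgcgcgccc
SLC25A3, chr12:98593436-98593735, plus strand: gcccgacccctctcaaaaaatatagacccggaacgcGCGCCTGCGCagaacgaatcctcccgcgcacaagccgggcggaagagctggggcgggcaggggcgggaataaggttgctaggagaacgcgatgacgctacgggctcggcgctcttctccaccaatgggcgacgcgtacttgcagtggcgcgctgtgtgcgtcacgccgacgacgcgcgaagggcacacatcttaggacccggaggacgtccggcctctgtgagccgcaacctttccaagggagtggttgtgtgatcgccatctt

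**Figure D5:**
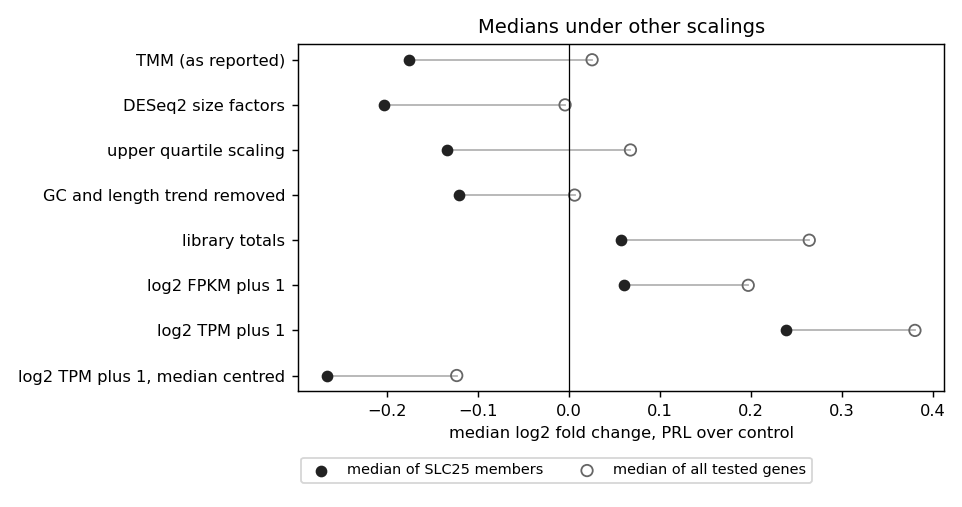
Median log2 fold change, PRL over control, of the tested SLC25 members (filled) and of all tested genes (open) under 8 scalings or units. The members' median lies left of that of all genes in each of the 8, while its sign is positive with library totals, FPKM and uncentred TPM.

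The counts in the related lists that follow stand beside 33.3% of all tested genes higher and 30.5% lower. Among genes of at least 100 TPM, 69.1% were lower and 13.5% higher. UCP2, MTCH2, TIMM8B, TIMM10, VDAC1, VDAC3, GOT2 and CS lie at that level. Of 4 tested relatives of the family that go by other symbols (UCP2, UCP3, MTCH1 and MTCH2), 2 fell. MTCH2, an insertase of the outer membrane, had 197, 198 and 203 CPM in PRL, against 345, 299.96 and 298 CPM in control (log2 fold change -0.66, adjusted p with edgeR = 6.1e-05). UCP3 had 0.727, 0.388 and 0.402 CPM in PRL, against 1.07, 1.28 and 0.869 CPM in control, and a log2 fold change of -1.07 (adjusted p with edgeR = 0.0235). That call rested on 13, 7 and 7 counts in PRL, against 16, 20 and 14 in control. The mean of UCP3, 0.528 TPM, was just inside the 0.5 TPM filter, and its PRL mean, 0.413 TPM, was under it. UCP2, the uncoupling protein of many cell types, was at -0.11 and did not pass (adjusted p with edgeR = 0.380). In TPM it had 223, 212.5 and 226 in PRL, against 178, 185 and 160 in control, so its direction rests on the scale.

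Of 10 genes for the machinery that inserts carriers, 7 fell and 1 rose (median log2 fold change -0.38, beside 0.03 over all genes). The small chaperone genes TIMM8B and TIMM10 had the smallest adjusted p. TIMM8B had 63.5, 65.4 and 69.8 CPM in PRL, against 201, 149.8 and 149.8 CPM in control (log2 fold change -1.33, adjusted p with edgeR = 7.2e-06). TIMM10 had 77.5, 79.0 and 78.1 CPM in PRL, against 196, 162 and 151 CPM in control (log2 fold change -1.12, adjusted p with edgeR = 7.3e-06). AGK, a lipid kinase that is also a subunit of the TIM22 complex, was the member that rose (log2 fold change 0.53, adjusted p with edgeR = 0.0016).

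Other carriers and channels of mitochondrial membranes gave 2 higher and 5 lower of 10. The sideroflexin gene SFXN2 had 50.7, 54.0 and 49.8 CPM in PRL, against 123, 125 and 119.8 CPM in control (log2 fold change -1.25, adjusted p with edgeR = 4.0e-07). The outer membrane channel gene VDAC3 had a log2 fold change of -1.02 (adjusted p with edgeR = 3.55e-06). The members that rose were its sister channel gene VDAC1 (0.72, adjusted p with edgeR = 3.4e-05) and the sideroflexin gene SFXN3 (0.60, adjusted p with edgeR = 1.3e-04). Among 18 enzymes that use the carried substrates, 5 were higher and 3 lower, with HK2, a hexokinase that binds mitochondria, at 2.52 (adjusted p with edgeR = 1.4e-07) and GOT2, the aspartate aminotransferase of the matrix, at -0.55 (adjusted p with edgeR = 2.3e-04). Of 9 tested genes for mitochondrial content and biogenesis, 2 were higher and 5 lower, with PPRC1, a coactivator, at -0.62 (adjusted p with edgeR = 1.0e-04) and citrate synthase, CS, a common measure of mitochondrial content, at -0.48 (adjusted p with edgeR = 2.25e-04). CS had 333, 328 and 319.6 CPM in PRL, against 459.7, 460.2 and 444 CPM in control. In TPM the groups of CS overlapped, with means of 205 in PRL and 211 in control. Those of PPRC1 overlapped in TPM too, with means of 20.3 and 24.5. The part of mitochondrial content in the members' changes was not tested.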

How the data were processed

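RNA of 6 T47D libraries had been extracted with Trizol, per the labels' protocols. The submitters' processing notes name HISAT2 2.1.0, Bowtie2 2.3.4.3 and GRCh38.p13. No counter, annotation or use of strand was given in the sources used here. The authors deposited estimated counts, FPKM and TPM per gene and library, per the file headers. The 6 columns of the authors' group means were not used. Of the deposited expected counts, 44.1% to 45.9% per library were not whole, and all were rounded.

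Genes with a mean TPM of at least 0.5 over all libraries (13462) were fitted in R 4.3.3 with edgeR 4.0.16 (TMM, robust quasi-likelihood, group as the only term, two-sided), with Benjamini-Hochberg adjustment over these genes and a threshold of 0.05. CPM are TMM-scaled. The SE is the absolute log2 fold change over the root of F. The fit was also run on simulated counts in which few genes differed, which cannot check the scaling of the real libraries. Alternatives used DESeq2 1.42.0, limma 3.58.1 on log2 values plus 1 or 0.1, and mgcv 1.9.3 for the trend on GC content (GENCODE 29 transcripts, 97.8% of genes) and length. The 95% interval and the limit of 3 counts cover counting error only.

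Values per library are given for the ADP/ATP and phosphate carriers, for up to 10 rises and 10 falls by size among called members with separate groups and at least 5 TPM in the higher group, and for the most abundant member of each role. Pairs of relatives and further members were described after their values were seen. In each related list the 2 genes of smallest adjusted p are named. AGK, UCP2, VDAC1, SFXN3 and TP63 were added after their values were seen. By itself, 1 tested member is not reported here, and it stays in the counts. The members and lists were chosen with earlier results of these data known. No label names separate cultures, so p-values cover the spread between these libraries, which may be technical. Coordinates are from GENCODE 29 on GRCh38.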

Additional observations from a re-analysis of the deposited data

How the results depend on the processing

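Of 21 alternatives, 2 (GC and length trend, median-centred TPM) were chosen after seeing the data. Members called stayed within 1.5 times of 27 in all 21. Members higher were 9, but 15 with library totals, 17 on log2 FPKM, 21 on log2 TPM (pseudocount 1 or 0.1), 19 on log2 TPM with no filter, and 6 on median-centred TPM. Members lower were 18, but 12 with library totals and 12 on log2 FPKM, 6 on each uncentred TPM setting and 21 on median-centred TPM. The members' median, -0.18, was 0.058 with library totals, 0.061 on FPKM, 0.24 and 0.26 on TPM with a pseudocount of 1 and 0.1, 0.18 on TPM with no filter, and -0.27 on median-centred TPM. Leaving out 1 library in turn gave 22 to 29 called members, 7 to 10 higher, 15 to 20 lower, 7320 to 9516 called genes and medians of -0.23 to -0.082.

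The sign of 17 members turned in at least 1 alternative, in 11 of them with no call on either side. With a call on either side, signs turned for SLC25A23 (0.034 with library totals, 0.19 on TPM, 0.20 with a pseudocount of 0.1), SLC25A39 (0.084 in each uncentred TPM setting), SLC25A28 (0.051, or 0.052 with a pseudocount of 0.1), SLC25A16 (0.025, or 0.029), SLC25A38 (0.25, or 0.26) and SLC25A44 (0.34, in all 3 uncentred TPM settings). Beside these, the median of all genes was 0.26 with library totals and 0.38 on TPM.

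With the replicate number as a block, 27 members were called, 10 higher and 17 lower, of which 9 and 17 were the members called without it. SLC25A23 was lost (-0.21) and SLC25A27 gained (0.42). Same-numbered libraries deviated from their group means with correlations of -0.08, 0.07 and -0.05. With 3 libraries per group, such values cannot tell whether the numbers pair the samples. DESeq2 called 8 members higher and 19 lower. With 15 counts in PRL, counting error limits SLC25A48.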
